A study of Danio rerio with 3 samples.

Results

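A small set of genes decides which fast transmitter a zebrafish retinal neuron makes, loads into vesicles and takes back up, and 8 of them are described here by their UMIs (unique molecular identifiers, each counting 1 captured RNA molecule) per cell type, per library and per barcode. The genes were chosen by name: gad1b, gad2, slc32a1, slc6a9, chata, slc18a3a, slc17a6b and slc17a7a, 8 of the 30579 gene symbols counted. The samples were single-cell RNA sequencing libraries of whole retina, 1 of the wild-type AB line (WT V3) and 2 of the uth4Tg line (P23H V3 and P23H V2), a transgenic that expresses rhodopsin with the P23H mutation of dominant retinitis pigmentosa and that loses and regrows rods throughout life. Each library was made from the pooled retinas of 3 adult fish aged 4 to 8 months, raised in the same light cycle, and V3 and V2 name the 10x Genomics reagent version. By its full name, rho:MmuRho_P23H-FLAG, the transgene puts a FLAG-tagged mouse rhodopsin under the promoter of the rod gene rho. With 1 library per genotype and reagent version, no test between genotypes was possible, and every interval below is a 95% interval for counting error only; differences between fish, pools and library preparations cannot be told apart from genotype.

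GABA is made from glutamate by glutamate decarboxylase, which gad1b and gad2 encode. The vesicular transporter encoded by slc32a1 loads both GABA and glycine into synaptic vesicles, so that a single loader serves both kinds of inhibitory neuron. The plasma membrane transporter of slc6a9 clears glycine and is the usual marker of glycinergic amacrine cells. Acetylcholine is made by choline acetyltransferase (chata) and loaded by slc18a3a, and in vertebrate retina these genes mark starburst amacrine cells, which also release GABA. The vesicular glutamate transporters slc17a6b and slc17a7a load glutamate, the transmitter of photoreceptors, bipolar cells and retinal ganglion cells. In retina, amacrine cells are the main inhibitory neurons of the inner layers and horizontal cells those of the outer layers.

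After filtering, 13554 of 13966 barcodes remained in WT V3, 15514 of 15585 in P23H V3 and 4605 of 7956 in P23H V2, with median depths of 1220, 1244.5 and 460 UMIs. The V3 libraries shared 64 cell barcodes, WT V3 and P23H V2 shared 1, and the P23H libraries shared 0. Cells were clustered without these genes and without 43 other transmitter genes, and types were named from markers outside those lists, clusters within a type by their leading genes outside those lists: 7 of 7 markers passed in the horizontal cell cluster and 3 to 10 of 10 in the 7 amacrine clusters of the V3 libraries. Free RNA from broken cells also gives UMIs in cells that do not express a gene. Erythroid cells were taken to lack all these genes and served as the background. Whether they express any of them, slc6a9 included, was not tested. Of the erythroid cells, gad2 was found in 5.57% of 377 in WT V3 (median 1223 UMIs) and 8.41% of 999 in P23H V3 (median 938 UMIs). Their levels, in counts per 1000000 UMIs of the type (CPM), were 42.7 and 157.5 for gad2, 39.0 and 127.5 for slc6a9, 39.0 and 100.2 for gad1b and 22.7 and 68.7 for slc32a1. The 4 members with at least 20 UMIs there were thus all higher in P23H V3 erythroid cells, and levels of this size in any neuron type were read as background. That reading is rough, since cell types differed. Members called higher were 6 of 6 in retinal pigmented epithelium and 3 of 4 in oligodendrocytes. In microglia and macrophages 1 of 3 was called higher and 1 lower. The share of all genes called was not counted in these types, so these counts cannot be set against it. The median log2 ratio of P23H V3 to WT V3 over all genes judged was 0.53 in retinal pigmented epithelium and 0.09 in oligodendrocytes. It was 0.04 in microglia and macrophages and 0.66 in erythroid cells. Rods had 51 gad2 UMIs of 1195414 in WT V3 and 36 of 837681 in P23H V3, without the erythroid rise. Another estimate, from the barcodes with the fewest UMIs, gave 103 and 148 CPM for gad2 and 225 and 243 for slc6a9. It gave 123 and 95.6 CPM for gad1b and 97.6 and 90.9 for slc32a1, both lower in P23H V3. The 2 estimates thus differ in level and, for gad1b and slc32a1, in direction.

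Amacrine cells carried 6 of the 8 genes well above that background in both V3 libraries, while slc17a6b (2 UMIs in each V3 library) and slc17a7a (0) were at or near 0 there. In amacrine cells, gad2 was at 1941 CPM in WT V3, 2124 in P23H V3 and 3468 in P23H V2, and gad1b was at 1169, 1455 and 2817. The loader slc32a1 stood at 1146, 1032 and 973 CPM, the flattest of these genes across libraries. It was found in 74.3% of WT V3 and 70.2% of P23H V3 amacrine cells (median depths 1697 and 1718 UMIs), against 2.92% and 6.61% of erythroid cells. Of all UMIs of gad2 in the library, 76.9% (WT V3) and 75.6% (P23H V3) came from amacrine cells, and of slc32a1, 80.9% and 83.6%. For chata the shares were 80.8% and 90.4%, and for slc18a3a 78.9% and 89.1%. They were lower for gad1b, at 37.4% and 52.8%, and for slc6a9, at 52.7% and 66.7%.

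**Figure D1:**
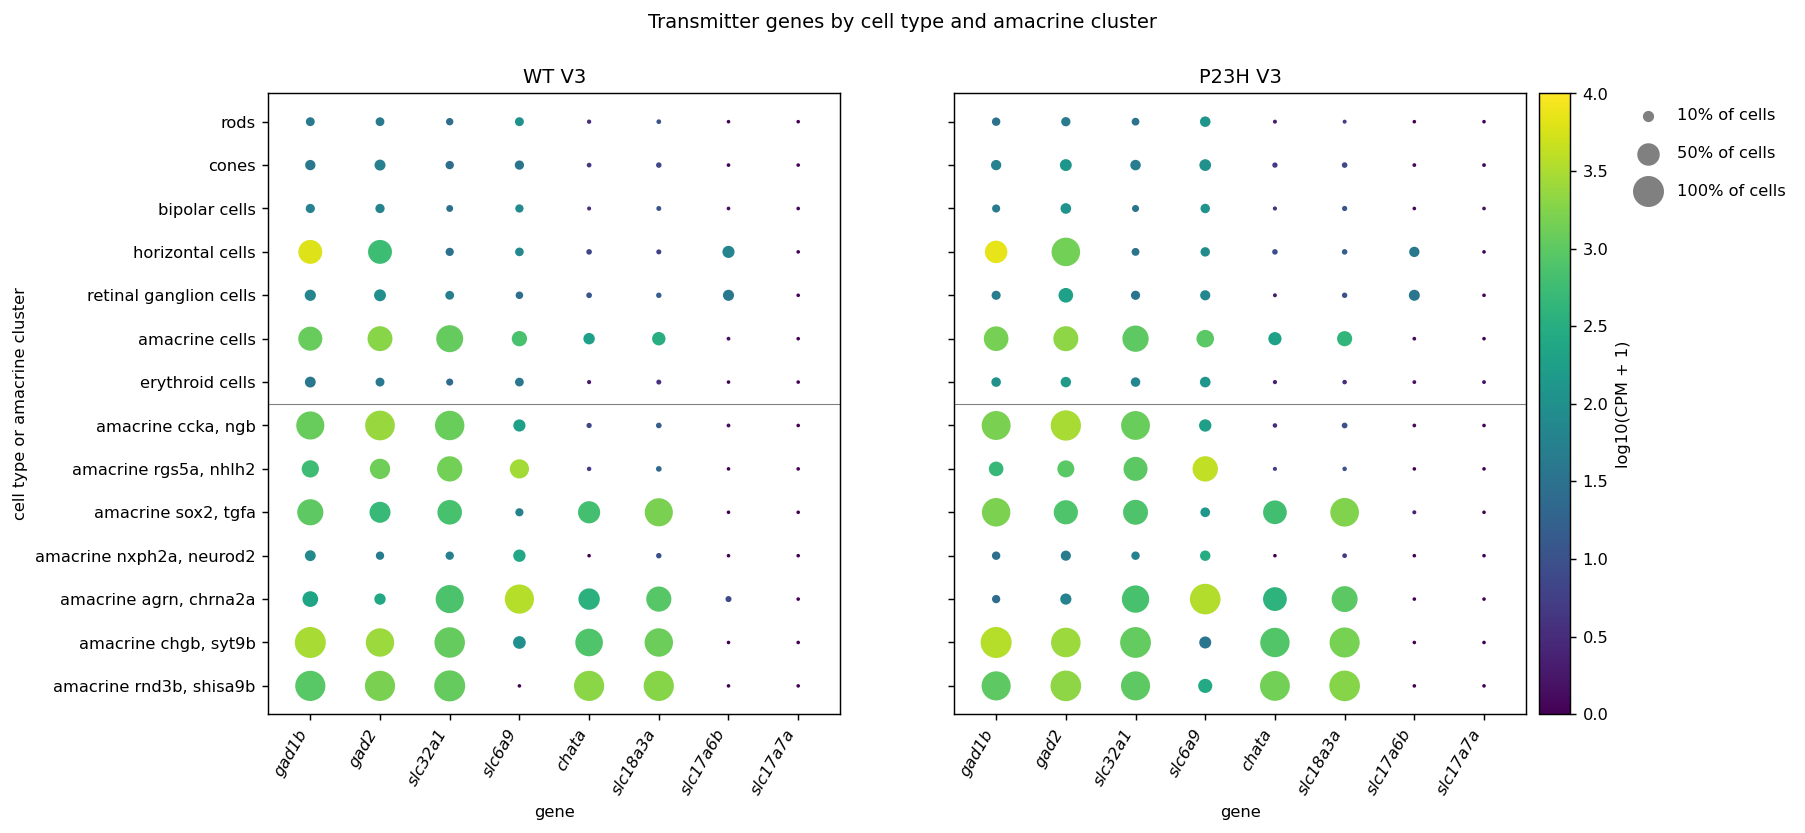
Levels of the 8 genes in WT V3 (left) and P23H V3 (right), with cell types above the grey line and the 7 amacrine clusters, named by their leading genes, below it. Colour is log10(CPM + 1) of the summed UMIs and dot size is the percent of cells with at least 1 UMI; GABA genes fill most amacrine clusters, gad1b and gad2 but not slc32a1 fill horizontal cells, and slc17a6b shows mainly in horizontal and retinal ganglion cells.

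The amacrine clusters differed in which of these genes they carried. The largest, led by ccka and ngb (893 WT V3 and 1406 P23H V3 cells), carried the genes of GABA synthesis and loading: gad2 was found in 91.4% and 95.1% of its cells and slc32a1 in 89.4% and 85.8%, while slc6a9 was found in 12.3% and 12.7% and chata in 1.0% and 0.5%. The cluster led by agrn and chrna2a (58 and 110 cells) was its counterpart for glycine, with slc6a9 in 87.9% and 97.3% of cells at 3589 and 3511 CPM. The cluster led by rgs5a and nhlh2 (669 and 866 cells, median depths 805 and 1003 UMIs) was a mixture of cells with gad and cells with slc6a9, and is treated as such below. In the cluster led by nxph2a and neurod2 (86 and 167 cells), no member exceeded 12.8% of cells in WT V3 or 8.4% in P23H V3, and the 2 members with enough UMIs, slc32a1 (52.3 and 58.8 CPM) and slc6a9 (253 and 284 CPM), gave it no clear transmitter among those listed. A further cluster of 333 WT V3 and 557 P23H V3 cells carried 6 of 10 amacrine markers but was left unnamed, because 4 markers of neurogenic progenitor cells also passed and genes of another class led it. There slc32a1 was found in 23.7% and 17.4% of cells and slc6a9 in 11.1% and 16.5%. Another unnamed cluster was led by the rod markers gnat1 and rom1b but had a profile like that of all cells together. It held 1199 WT V3 and 6 P23H V3 cells, where 820 and 502 cells were named rods. In its WT V3 cells gad1b was found in 23.5% and slc6a9 in 11.01%. Neither cluster enters the values of any named type, rods included.

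The balance of the gad paralogs differed between cell classes. Of the UMIs of gad1b and gad2 together, gad1b took 32.2% (31.3 to 33.2) in the ccka cluster, 54.9% (52.8 to 56.9) in the chgb cluster and 67.4% (63.3 to 71.4) in the sox2 cluster of WT V3. In P23H V3 the same clusters gave 34.4%, 59.3% and 67.5%, so the order of the 3 was the same in both libraries and their intervals did not overlap. The small rnd3b cluster, which like the chgb and sox2 clusters held cholinergic genes and gad, gave 36.9% (29.4 to 44.9) in WT V3. In P23H V3 it gave 32.6% (27.6 to 37.8), so it was nearer to the ccka cluster in both. In horizontal cells gad1b took 91.8% of the gad UMIs in WT V3, 83.2% in P23H V3 and 85.7% in P23H V2.

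Cholinergic genes were found in 4 amacrine clusters, which differed in their second transmitter. In the cluster led by sox2 and tgfa (229 and 519 cells), slc18a3a was found in 81.2% and 84.6% of cells and chata in 48.5% and 56.1%, and 80.2% and 93.1% of the cells with either gene also held gad. The cluster led by chgb and syt9b (59 and 84 cells) was the deepest amacrine cluster, with medians of 7150 and 6711 UMIs. It held chata in 77.97% and 89.3% of cells. Every cell of the cluster held gad, including those with a cholinergic gene (49 and 79). The small cluster led by rnd3b and shisa9b (18 and 40 cells) was of the same kind, with chata in 94.4% and 92.5%. In the agrn cluster, by contrast, chata was found in 44.8% and 56.4% of cells and the partner was glycinergic: 90.7% and 97.6% of cells with a cholinergic gene held slc6a9, and 18.6% and 13.1% held gad. The shares of cholinergic cells with gad or slc6a9 were near those over all cells of the same cluster, and so describe the cluster as a whole. In the pooled amacrine cells 87.7% of chata cells in WT V3 and 89.0% in P23H V3 had slc18a3a, and the reverse shares were 59.8% and 64.2%. Both genes together were found in 0 of 377 WT V3 erythroid cells, with an interval up to 0.974%, and in 0.1% of 999 P23H V3 erythroid cells.

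The glutamate loaders slc17a6b and slc17a7a gave few UMIs in these libraries. For slc17a7a, which has 2 rows in the files, 1 UMI was counted in all kept cells of WT V3, 5 in P23H V3 and 0 in P23H V2. For slc17a6b the totals were 121, 113 and 4 UMIs, and most lay in 2 types. In horizontal cells it was found in 12.2% of 469 WT V3 and 8.12% of 480 P23H V3 cells (63 and 39 UMIs, 62.4 and 39.3 CPM), and in retinal ganglion cells, which use glutamate, in 9.79% and 9.59% (49 and 66 UMIs, 39.3 and 35.8 CPM), against 0 of 377 and 0.1% of 999 erythroid cells. Within horizontal cells it was close to the product of the separate shares with gad1b, at 7.25% observed and 6.94% by the product in WT V3 and 5.42% and 4.05% in P23H V3. In rods it had 0 UMIs in every library, and in bipolar cells, which also release glutamate, it had 2, 1 and 1. These values do not cover slc17a7b, another vesicular glutamate transporter gene. It had 1107 UMIs in WT V3, 1071 in P23H V3 and 39 in P23H V2.

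Co-detection per barcode showed the inhibitory classes as largely separate over the pooled amacrine cells. In amacrine cells, gad (either paralog) and slc6a9 were found together in 8.65% of WT V3 cells (7.46 to 9.96) and 9.99% of P23H V3 cells (8.97 to 11.1), where the product of the separate shares was 15.3% and 20.5%. With every cell thinned to 1000 UMIs, which 1413 and 2618 cells had, the observed shares were 5.31% and 7.14% and the products 10.7% and 15.8%. In P23H V2 the pair was found in 6.28% of cells against a product of 11.7%. The loader slc32a1, which both classes need, was found in 83.9% and 79.0% of amacrine cells with gad, and in 58.3% and 58.8% of those with slc6a9 and no gad. The last group was shallower, with median depths of 982 and 1187 UMIs against 1965 and 1888 for cells with gad and no slc6a9. The pooled shares of gad with slc6a9 also mix clusters rich in 1 gene and poor in the other. At 250 UMIs a cell, the ccka cluster had the pair in 1.34% and 1.49%, near the products of 1.56% and 1.92%. The rgs5a cluster had it in 0.897% and 1.50%, against 5.68% and 7.07%.

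Pairs within 1 transmitter went the other way. In amacrine cells thinned to 1000 UMIs, gad1b and gad2 were found together in 42.7% of WT V3 and 45.6% of P23H V3 cells, against products of 36.3% and 36.0%. For chata and slc18a3a the observed shares were 6.58% and 9.70% and the products 1.32% and 2.46%, the largest ratio of observed share to product among the pairs plotted. These pooled ratios also mix clusters rich and poor in the genes. Within the sox2 cluster this pair was at 29.8% and 37.5%, against products of 29.5% and 37.2%. In the agrn cluster it was at 14.9% and 22.7%, against 9.46% and 15.5%. In the ccka cluster gad1b with gad2 was at 51.5% and 64.3%, against 50.3% and 62.7%. In unthinned cells, a cholinergic gene and gad were found together in 12.7% and 18.8%, where the products were 12.1% and 15.9%, a pooled figure that mixes the gad-rich and gad-poor cholinergic clusters described above.

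**Figure D2:**
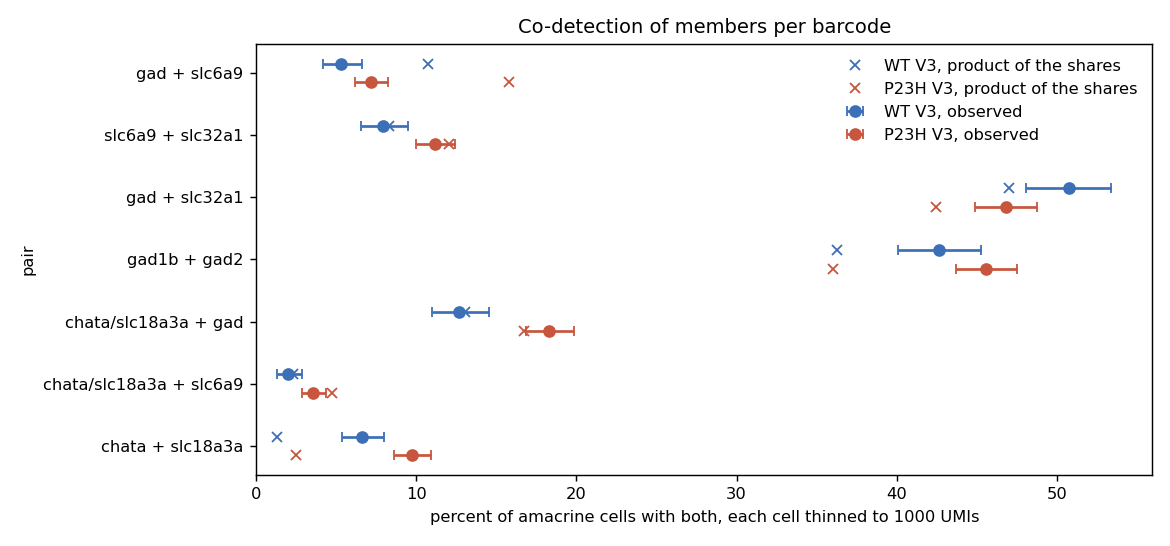
Percent of amacrine cells in which both genes of a pair had at least 1 UMI, with each cell thinned to 1000 UMIs (1413 WT V3 and 2618 P23H V3 cells). Points are observed shares with exact binomial intervals and crosses are the products of the separate shares; gad with slc6a9 lies left of its crosses, at 5.31% and 7.14% against 10.7% and 15.8%, and chata with slc18a3a lies right of them.

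Each amacrine cell was also placed by its gad and slc6a9 UMIs. Cells with gad alone made up 63.7% of WT V3, 61.4% of P23H V3 and 69.6% of P23H V2 amacrine cells, cells with slc6a9 alone 12.5%, 18.7% and 9.08%, and cells with neither 15.2%, 9.90% and 15.08%. These shares are unthinned, at median depths of 1697, 1718 and 352 UMIs. With each cell thinned to 250 UMIs, cells with gad alone made up 37.4%, 40.0% and 64.0%. Cells with slc6a9 alone were then 9.99%, 14.2% and 7.95%, and cells with neither 51.6%, 44.5% and 23.7%. At 1000 UMIs a cell, the ccka cluster had 85.4% and 86.9% of cells with gad alone and 0.7% in both V3 libraries with slc6a9 alone. The agrn cluster had 70.2% and 76.4% with slc6a9 alone. The mixed rgs5a cluster moved between the libraries, from 44.3% to 23.4% with gad alone and from 31.6% to 59.9% with slc6a9 alone, so a pooled level in that cluster follows its make-up as well as the level per cell. The nxph2a cluster had 81.8% and 90.2% with neither.

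**Figure D3:**
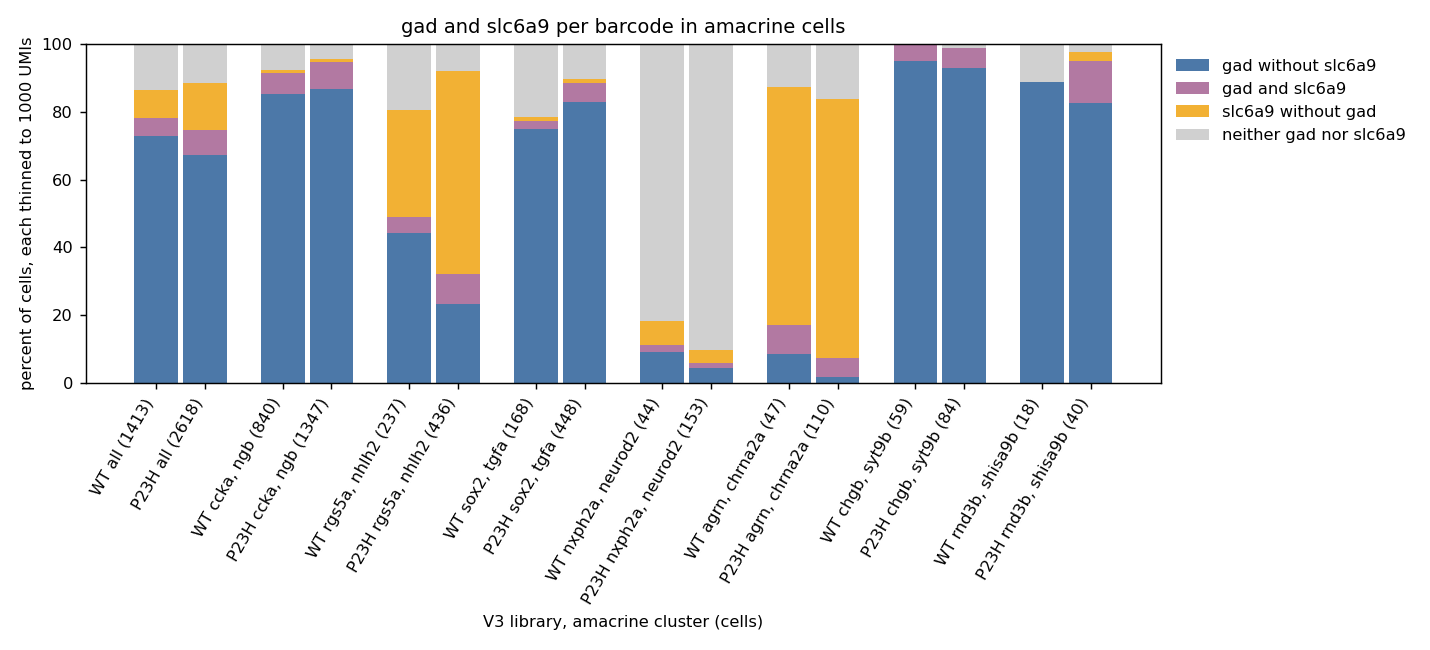
Percent of amacrine cells with gad only, gad and slc6a9, slc6a9 only or neither, with each cell thinned to 1000 UMIs, for all amacrine cells and each of 7 clusters in WT V3 and P23H V3; the number of cells stands in brackets. The ccka, sox2, chgb and rnd3b clusters are mostly gad only, the agrn cluster is mostly slc6a9 only, and in the rgs5a cluster the slc6a9-only part is 31.6% in WT V3 and 59.9% in P23H V3.

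For P23H V3 against WT V3, a call, higher or lower, needed separate CPM intervals in the 2 libraries together with a ratio of 1.5 or more either way, among genes with at least 20 UMIs over both libraries. Over the 6 neuron types, 33 of 48 member and type pairs could be judged, and 7 were called higher and 0 lower, with a median log2 ratio of 0.15. By type, 0 of 6 members were called in amacrine cells where 25.7% of all genes were called, 1 of 5 in horizontal cells (17.7%), 3 of 6 in cones (31.2%), 1 of 6 in bipolar cells (28.8%), 2 of 6 in retinal ganglion cells (20.5%) and 0 of 4 in rods (25.1%). The rule thus calls a large share of all genes, and no type's share of members can be set apart from that background with so few members. The medians over members were 0.22 in amacrine cells, 0.13 in horizontal cells, 0.72 in cones, 0.21 in bipolar cells, -0.30 in retinal ganglion cells and 0.11 in rods, and those over all genes judged were -0.05, 0.03, -0.07, -0.12, -0.04 and 0.29. Fewer cells of a kind and less RNA per cell cannot be told apart in levels summed over a type.

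The genes of GABA synthesis and loading were not called in the pooled amacrine cells. The level of gad1b was 1169 CPM (1137 to 1203) in WT V3, 1455 (1426 to 1485) in P23H V3 and 2817 in P23H V2, a log2 ratio of 0.32 (0.27 to 0.37) for P23H V3. That of gad2 was 1941 (1899 to 1983), 2124 (2088 to 2160) and 3468, a log2 ratio of 0.13 (0.09 to 0.17). For both genes WT V3 was the lowest of the 3 libraries and P23H V2 the highest, although P23H V2 differs from WT V3 in reagent version as well as genotype. The free RNA estimate of P23H V2 was also higher, at 714 CPM for gad1b and 415 for gad2, against 123 and 103 in WT V3. The loader slc32a1 went the other way, with a log2 ratio of -0.15 (-0.21 to -0.10).

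By cluster, the gad genes were higher in P23H V3 in some amacrine clusters and lower in others. In the ccka cluster, with 0 of 6 members called (22.2% of all genes), gad1b was at 1162 and 1591 CPM (log2 0.45, 0.39 to 0.52) and gad2 at 2443 and 3041 (0.32, 0.27 to 0.36), under the ratio of a call, while slc32a1 was at 1215 and 1203. In the mixed rgs5a cluster, with 0 of 5 called (20.5%), gad1b was at 569 and 484.5, gad2 at 1291 and 948 and slc32a1 at 1420 and 985, and slc6a9 at 2832 and 4149 (0.55, 0.47 to 0.63), beside the change in make-up given above. In the chgb cluster, with 1 of 6 called (13.8%), gad1b was at 3037 and 3643 (0.26) and gad2 at 2498 and 2499, and slc6a9, near background, was called lower at 98.4 and 35.0 (-1.49). In the rnd3b cluster, with 1 of 6 called (11.6%), slc6a9 had 0 UMIs in WT V3 and 29 of 111850 UMIs, in 7 cells, in P23H V3. The ratio of 5.65 was against a floor of 3 UMIs in the WT V3 library and not a measured level. The barcodes with the fewest UMIs gave slc6a9 at 243 CPM in P23H V3, and free RNA was not tested as a source here. In the same cluster gad2 was at 1544 and 2074 CPM (0.43, 0.08 to 0.78). The nxph2a cluster had 0 of 2 members called (13.5%).

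**Figure D4:**
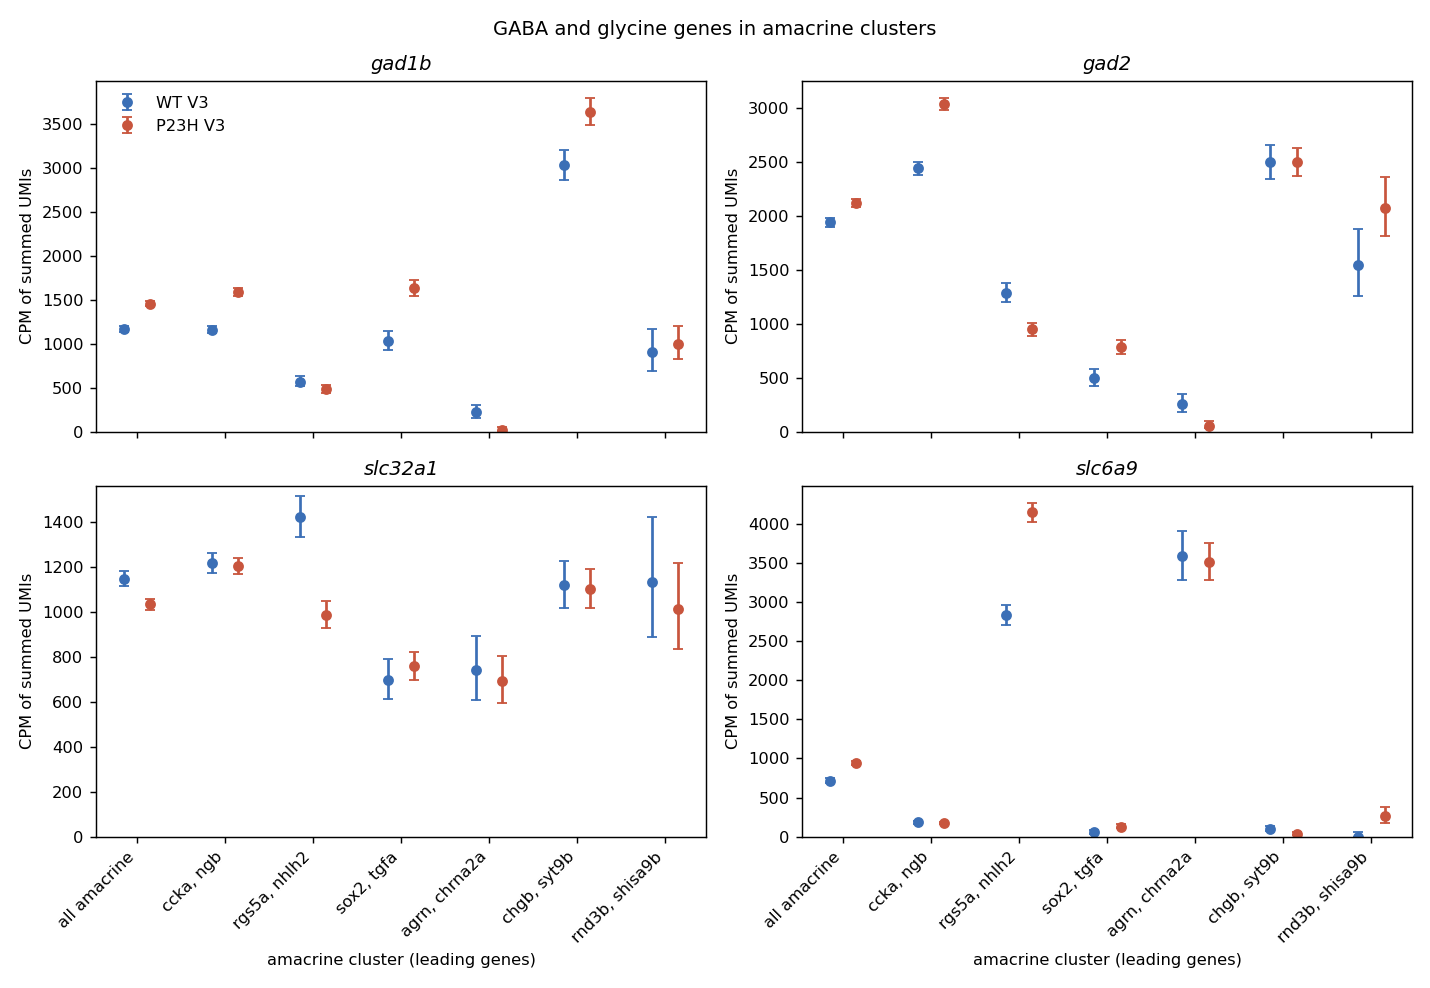
CPM of summed UMIs of gad1b, gad2, slc32a1 and slc6a9 in all amacrine cells and in 6 amacrine clusters, with exact Poisson intervals, for WT V3 (blue) and P23H V3 (red). The P23H V3 points of gad1b and gad2 lie above the WT V3 points in the ccka and sox2 clusters and below them in the rgs5a and agrn clusters, and slc6a9 is highest in the rgs5a cluster (2832 and 4149) and the agrn cluster (3589 and 3511).

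The sox2 cluster, of the gad and cholinergic kind, had 3 of 6 members called higher where 17% of all genes were called. There gad1b was at 1033 CPM (928 to 1145) in WT V3 and 1632 (1542 to 1726) in P23H V3, gad2 at 499 (427 to 579) and 785 (723 to 851), and slc6a9, near background, at 54.8 and 129. The log2 ratios were 0.66, 0.65 and 1.24. Its cholinergic genes were level, with chata at 637 and 624 CPM and slc18a3a at 1569 and 1720. In the agrn cluster, 2 of 6 members were called lower (10.6%): gad1b at 219 and 24.0 CPM (log2 -3.19, -4.74 to -1.91) and gad2 at 253 and 56.0 (-2.18, -3.18 to -1.25). These are thin counts, with 32 and 6 UMIs of gad1b and 37 and 14 of gad2, and the cluster's own genes slc6a9, chata, slc18a3a and slc32a1 had log2 ratios of -0.03, 0.07, 0.14 and -0.09.

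Glycine and acetylcholine genes were not called in the pooled amacrine cells. The level of slc6a9 was 718 CPM in WT V3, 941 in P23H V3 and 1084 in P23H V2, a log2 ratio of 0.39 (0.33 to 0.45) that was 0.06 without the rgs5a cluster. That of slc18a3a was 326, 409 and 357 CPM (0.33, 0.23 to 0.42) and that of chata 177, 185 and 52.4 (0.07, -0.07 to 0.20). Within the 4 cholinergic clusters, the log2 ratios of chata lay between -0.48 and 0.07 and those of slc18a3a between -0.02 and 0.27, and none was called.

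In horizontal cells gad2, 1 of the 2 GABA synthesis genes, was higher in both P23H libraries, of which P23H V2 also differs in reagent version. Its level was 559 CPM (514 to 607) in WT V3, 1417 (1343 to 1493) in P23H V3 and 1476 in P23H V2, a P23H V3 ratio of 2.54 (log2 1.34, 1.2 to 1.49). It was found in 57.1% of WT V3 and 84.0% of P23H V3 horizontal cells, at median depths of 2027 and 1827.5 UMIs, against 5.57% and 8.41% of erythroid cells. The level of gad1b was 6249, 6997 and 8845 CPM (log2 0.16, 0.11 to 0.21, not called). With an estimate of the free RNA subtracted, the log2 ratio of gad2 was 1.48 and was still called. The loader slc32a1 was low in horizontal cells, in 4.48% and 3.96% of cells although they hold both gad genes.

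Horizontal cells fell into those rich in gad1b and those without it. In WT V3, 42.9% of horizontal cells had 0 gad1b UMIs, 8.96% had 1 to 2, 7.68% had 3 to 9 and 40.5% had 10 or more, and the last group held 96.0% of all gad1b UMIs, up to 151 in a cell. In P23H V3 the shares were 50.2%, 5.00%, 3.96% and 40.8%, with a highest count of 120. In the shallower P23H V2 library 48.3% had 0 and 35.4% had 3 to 9. Cells with 0 were less deep, at medians of 1651 and 1610 UMIs in the V3 libraries against 2551.5 and 2460 for cells with 10 or more. Cells with 1 to 2 had medians of 1290.5 and 1675 UMIs, and cells with 3 to 9 had 1154 and 1117. How far depth shapes these groups was not tested.

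The 2 groups differed in other genes and shared the gad2 difference; this split and the genes of this paragraph were chosen after their values were seen. With 3 or more gad1b UMIs counted as positive, gad2 was at 607 CPM in the 226 positive cells and 511 in the 201 cells with 0 of WT V3, at 1275 and 1601 in P23H V3 (215 and 241 cells) and at 1632 and 1344 in P23H V2 (140 and 157 cells). Both groups were thus higher in both P23H libraries. P23H V2 also differs in reagent version, and its free RNA estimate for gad2 was 415 CPM, against 103 in WT V3. The LIM homeobox gene lhx1a had 174 and 160 CPM in the positive cells of WT V3 and P23H V3 and 0 UMIs in the cells with 0 in both libraries, and isl1, another LIM homeobox gene, had 34.5 and 19.8 CPM in the positive cells and 537 and 318 in the others. The receptor tyrosine kinase gene ret (538 and 618 CPM against 8.7 and 0) also went with gad1b, and the opsin gene opn9 (65.8 and 43.2 against 1437 and 945) went with its lack. Of the markers that named horizontal cells, lhx1a was thus not found in the cells with 0, and the others were present in both groups. The connexin gene cx52.6 was at 1679 and 1082 CPM in positive cells and 772 and 599 in the others. In WT V3, cx52.9 was at 477 CPM in positive cells and 261 in the others, and cx55.5 at 658 and 662. There rprmb was at 2667 and 3320, aqp9a at 2254 and 2934 and ompa at 2238 and 2531. In P23H V3 ompa was at 1790 and 1245.

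**Figure D5:**
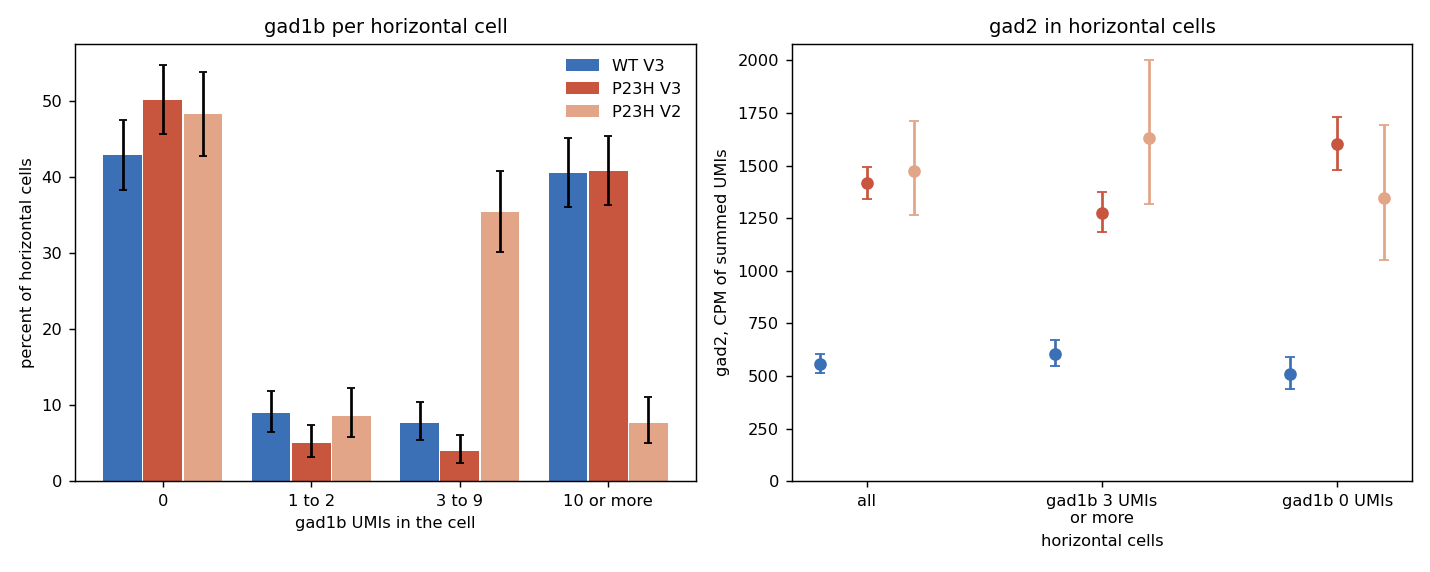
Left, percent of horizontal cells by their number of gad1b UMIs, with exact binomial intervals, in 3 libraries (469 WT V3, 480 P23H V3 and 325 P23H V2 cells). Right, gad2 CPM with exact Poisson intervals in all horizontal cells, those with at least 3 gad1b UMIs and those with 0; each WT V3 point (559, 607 and 511) lies below both P23H points beside it.

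The calls in cones and bipolar cells, and that of slc6a9 in retinal ganglion cells, were at pooled levels at or near those of erythroid cells. In cones the gad2 UMIs were not spread evenly, as given below. In cones, gad2 was at 51.6 CPM in WT V3, 127 in P23H V3 and 183 in P23H V2 (log2 1.30), slc6a9 at 33.1, 99.7 and 97.1 (1.59) and slc32a1 at 24.7, 46.1 and 106 (0.90). In bipolar cells gad2 was at 62.1, 114 and 465 (0.88). In retinal ganglion cells slc6a9 was at 27.2, 66.8 and 91.4 (1.29), a ratio that turned to -3.76 with each library clustered by itself. There gad2 was at 96.9, 183 and 244 (0.92), above the erythroid 42.7 CPM of WT V3 and nearer to the 157.5 of P23H V3. It was still called with an estimate of the free RNA subtracted, 103 CPM in WT V3 and 148 in P23H V3. The WT V3 level lay under that estimate, so the log2 ratio of 3.87 was against a floor of 3 UMIs and not a measured level. The same genes were also called higher in erythroid cells of P23H V3, where the log2 ratio was 1.88 for gad2, 1.71 for slc6a9 and 1.60 for slc32a1, beside a median of 0.66 over all genes. In cones, a cluster of 31 WT V3 and 41 P23H V3 cells with 7 of 7 cone markers held gad in 67.7% and 85.4% of its cells. Its amacrine markers were at a summed 2065 and 2724 CPM, against 151 and 239 in all cones. Of its cells, 83.9% and 73.2% had doublet scores in the top 8% of their library. The same tool called 0 doublets in the V3 libraries, and whether these cells were doublets was not tested. The cluster held 155 of the 355 cone UMIs of gad2 in WT V3 and 429 of 566 in P23H V3, so the pooled P23H V3 cone level lay mostly in these cells. Without this cluster, likewise left out with the data seen, the cone log2 ratios were 0.12 for gad2, 0.42 for slc32a1 and 1.23 for slc6a9, and only slc6a9 was still called. In rods, where no member was called, slc6a9 was at 109, 127 and 122 CPM, with 5.61% and 8.57% of V3 cells positive.

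The library background also sets a limit on P23H V2. There gad1b was at 246 CPM in cones, 254 in rods, 449 in retinal ganglion cells and 598 in bipolar cells, types in which the V3 libraries had 29.8 to 64.1. Cells of P23H V2 had median depths of 284.5 to 676 UMIs by type, and its values stand beside the V3 values as a description.

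Of 43 other genes of transmitter synthesis, transport and breakdown, counts were judged in the same 6 types, where 17.7% to 31.2% of all genes were called. GABA genes (6 in all) gave 12 gene and type pairs with 0 called higher and 3 lower, acetylcholine genes (4) 7 pairs with 0 and 3, glutamate genes (18) 39 pairs with 8 and 3, glycine genes (4) 4 pairs with 1 and 1, and monoamine genes (11) 12 pairs with 2 and 2. In amacrine cells aldh9a1b, an aldehyde dehydrogenase of a minor route to GABA, was at 11.5 CPM in WT V3 and 3.86 in P23H V3 (-1.57), and slc5a7a, the choline transporter that feeds acetylcholine synthesis, at 25.1 and 11.9 (-1.08). Also in amacrine cells, gldc, which breaks down glycine, was at 5.03 and 10.96 (1.12). In bipolar cells abat, which breaks down GABA, was at 17.7 and 7.27 (-1.28), the glycine cleavage gene gcshb at 7.63 and 2.31 (-1.73) and the vesicular glutamate transporter slc17a7b at 12.4 and 5.50 (-1.18). Of the 1250 gcshb UMIs of WT V3, 978 lay in retinal pigmented epithelium, a type with 1102 cells there. P23H V3 had 166 such cells and 313 gcshb UMIs in all. Levels as low as these can be free RNA from other types, which was not tested for these 43 genes. In cones, tph1a, which makes the serotonin precursor and feeds melatonin synthesis in photoreceptors, was at 7.99 and 0.45 (-4.15, 55 and 2 UMIs), and ache, which breaks down acetylcholine, at 33.4 and 20.5 (-0.71). In rods glsa, which makes glutamate from glutamine, was at 31.8 and 111 (1.80) and ddc, a monoamine synthesis enzyme, at 54.4 and 133.7 (1.30). The highest level of each transmitter in WT V3 was that of glula in Müller glia (13018 CPM, 98.7% of cells), which turns glutamate to glutamine there, and of ache (320), abat (155) and ddc (63.2) in amacrine cells and gcshb in retinal pigmented epithelium (154).

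Across the 29 V3 clusters, the genes most like each member in WT V3 were ranked by Pearson's r of log2(CPM + 10), given as a description over clusters that share 1 library. For gad2 these were the synaptotagmin syt1a (0.92), gad1b (0.92) and slc32a1 (0.91). For chata they were slc18a3a (0.98), aclya, a gene of acetyl-CoA synthesis (0.95), and the synaptic vesicle gene sv2c (0.89). For slc6a9 they were ccdc24 (0.83), the LIM homeobox gene lhx2b (0.76) and timp2a (0.74), and for slc17a6b si:ch211-149b19.2 (0.93), the neurofilament gene neflb (0.90) and tagln3b (0.87). For slc17a7a there were too few UMIs.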

How the data were processed

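Whole retinas of 3 fish were pooled per library, dissociated, and profiled with 10x Genomics 3′ kits. The authors deposited UMI count matrices, whole-number counts per gene and barcode with no normalization, made with Cell Ranger on GRCz11 (the file header gives version 3.1.0), and the 13966 and 15585 barcodes in the WT V3 and P23H V3 matrices are as many as the study states before its filters. The 47048 feature rows were summed by symbol to 30579, suffixed copies included. Barcodes were kept at 200 to 6000 genes (WT) or 200 to 4700 genes (P23H) and at most 10% mitochondrial UMIs. A second wild-type library, of the older kit, was not analysed here.

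Cells were clustered with Seurat 5.3.0 in R 4.3.3 (counts scaled to 10000 per cell, 2000 variable genes, 20 principal components, resolution 0.8, seed 1), the V3 libraries together and P23H V2 alone, with all transmitter genes left out. This gave 29 and 16 clusters, named where at least 3 markers of a type passed. Scrublet in scanpy 1.11.5 called 3 doublets in P23H V2 and 0 in the V3 libraries and so had not worked. Doublets were therefore kept, and removing the top 8% of scores was an alternative.

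UMIs were summed per type and library and divided by the type's total. Intervals are exact Poisson for CPM and Clopper-Pearson for shares, at 95%, and cover counting error only. Binomial thinning to 1000 UMIs drew each cell once. The call rule was run on simulated Poisson counts drawn from the WT V3 profile. These carry no variation between fish or libraries, so they cannot show how often the rule errs on the real libraries. Of the set of 10 genes, 2 are not reported here. The genes named are the other members, the 2 called genes with the largest change per transmitter among the other transmitter genes with at least 100 UMIs, the highest of these per transmitter, and the 3 genes most like each of gad2, slc6a9, chata, slc17a6b and slc17a7a. Genes named beside the horizontal cell split fall outside this rule. The members and lists were chosen with earlier results of these data known, and the split of horizontal cells, the split of amacrine cells by gad and slc6a9, and 2 left-out clusters were chosen after the values were seen. Alternatives covered filters, doublets, clustering, normalization (edgeR 4.0.16 and DESeq2 1.42.0 size factors), background subtraction, thinning and call thresholds. Python 3.11.15, numpy 2.4.6, scipy 1.17.1 and pandas 2.3.3 were used. Genome coordinates and sequences were not used here, since no reference of the build of the files was at hand.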

Additional observations from a re-analysis of the deposited data

How the results depend on the processing

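Of the 7 calls over 6 neuron types, between 6 and 7 also held under filters on genes and mitochondrial UMIs, removal of likely doublets, other clusterings, other scalings and other UMI minimums. The count was 12 with each library clustered by itself (6 of the 7 among them), 2 after subtraction of the background profile, which left gad2 in horizontal and retinal ganglion cells, 4 at a ratio of at least 2, and 19 with P23H V2 in place of P23H V3, where the kit differs as well as the genotype. After the subtraction, the gad2 call in retinal ganglion cells was against a floor of 3 UMIs, since the WT V3 level lay under the profile. Without the smallest cone cluster, chosen after seeing the data, 5 of the 7 calls were left. The sign of 1 log2 ratio changed: slc6a9 in retinal ganglion cells was -3.76 with each library clustered by itself. The cause of the changes was not tested.

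Co-detection in amacrine cells followed depth and the cells counted. For gad with slc6a9, the shares in WT V3 and P23H V3 were 5.31% and 7.14% at 1000 UMIs a cell, 0.944% and 1.28% at 250 UMIs, 3.03% and 3.60% with at least 2 UMIs of each gene, and 2.47% and 3.72% over all 6 neuron types. For chata with slc18a3a they were 6.58% and 9.70%, 1.29% and 1.159%, 5.67% and 6.27%, and 2.05% and 3.71%, in the same order. The share of chata with slc18a3a was also 11.05% in WT V3 with at least 500 genes per cell, 16.9% in P23H V3 with each library clustered by itself, and 13.8% and 18.1% without the rgs5a cluster, likewise chosen after seeing the data. No paired analysis was possible because each group held 1 library. In all, 499 values under alternatives stayed within the reported counting interval (counts of calls within 1.5 times), 72 left it and 1 changed sign. At these depths slc17a6b and slc17a7a could not be compared beyond their few UMIs.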
